A study of Mus musculus with 32 samples.

Results

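Rgs16 and Rgs7, which encode regulators of G-protein signalling, are 2 of the 2508 genes that the authors listed in at least 1 of 4 tissue comparisons of mice with and without an adipocyte-targeted Bcl6 deletion. They were chosen by name, with their difference between AKO and WT already known, so that difference is described below and not tested. Both genes were held in the count tables of male and of female inguinal fat, Rgs16 alone was in the comparison of perigonadal fat, and neither was among the 37 genes listed for liver. WT mice were Bcl6 fl/fl without Cre, and AKO mice were Bcl6 fl/fl;Adipoq-Cre, in which the adiponectin promoter drives Cre in adipocytes. Both genotypes were on the C57BL/6 background and both carried the loxP-flanked Bcl6 alleles. No group carried Cre alone, so the deletion and the Cre transgene cannot be told apart. Inguinal fat, a subcutaneous depot, was sequenced from 4 WT and 4 AKO males and from 4 WT and 4 AKO females, and the animal numbers in the labels tie male perigonadal to male inguinal samples, mouse by mouse. Ages were not in the labels.

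G-protein-coupled receptors act through G proteins that are active while GTP is bound to the alpha subunit. RGS proteins speed the hydrolysis of that GTP and so shorten the signal. Rgs16 encodes a small member of the family that acts on the Gi and Gq classes of alpha subunit. Rgs7 encodes a larger protein that acts on the Gi and Go class, is stable only in a complex with the beta subunit Gnb5, and is anchored at membranes by Rgs7bp, Gpr158 or Gpr179. It is best known from neurons and the retina. In adipocytes, Gs-coupled receptors raise cyclic AMP and lipolysis and Gi-coupled receptors restrain them.

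Both genes lie on mouse chromosome 1, 21.3 Mb apart. In GENCODE M21 (GRCm38, the assembly of mm10), Rgs16 (ENSMUSG00000026475) spans 153740349 to 153745468 on the plus strand, with 1 coding transcript of 2339 bases in 5 exons. Rgs7 (ENSMUSG00000026527) spans 175059087 to 175492500 on the minus strand, a gene of 433414 bases with 7 coding transcripts, the longest of 2431 bases in 18 exons. The bases before each start site are shown because Bcl6, the targeted gene, encodes a DNA-binding repressor, and because the start regions of both genes are rich in CpG. They are credited to RefSeq (GRCm38.p6) and are printed 5′ to 3′ on the strand of the gene, 250 bases each, at chr1:153740103-153740352 (plus strand) for Rgs16 and chr1:175492546-175492795 (minus strand) for Rgs7. RefSeq also holds a longer Rgs7 model that starts upstream of this window. Capitals mark matches on either strand to the CCAAT box, to the GC box (GGGCGG) or to the E-box motif (CACGTG).
Rgs16: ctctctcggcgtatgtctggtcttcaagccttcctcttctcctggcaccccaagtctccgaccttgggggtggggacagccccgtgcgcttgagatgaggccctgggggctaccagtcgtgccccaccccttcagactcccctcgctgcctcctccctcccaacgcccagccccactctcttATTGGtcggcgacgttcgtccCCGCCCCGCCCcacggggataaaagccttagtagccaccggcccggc
Rgs7: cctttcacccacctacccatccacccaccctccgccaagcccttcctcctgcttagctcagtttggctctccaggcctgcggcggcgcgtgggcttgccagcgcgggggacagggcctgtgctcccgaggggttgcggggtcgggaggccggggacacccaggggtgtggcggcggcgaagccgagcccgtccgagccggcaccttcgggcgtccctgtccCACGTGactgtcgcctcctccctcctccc

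The Rgs16 window held 17 CpG and the Rgs7 window 22, against a median of 6 over 32851 promoters of the same length. The palindrome TTCNNNGAA, the core shared by Bcl6 and STAT motifs, was in neither window and in 7.02% of all promoters, and its subset TTCCTAGAA was in neither window and in 0.347% of all. CCAAT was found 1 time in the Rgs16 window (33.8% of promoters hold it), and GGGCGG, the GC box, 2 times in overlapping copies (32.7%). The E-box CACGTG was found 1 time in the Rgs7 window (6.02% of promoters). All motifs were searched on both strands, and a match is a run of letters, not a binding site.

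Poly(A) RNA was measured in each library, and only the genes that the authors had called at an adjusted p under 0.05 were held. The counts in those genes ranged from 592820 to 2603509 per library in male and from 864592 to 4072659 in female inguinal fat, which is no measure of how deeply a library was sequenced, and total depth is unknown. The authors' size factors, which carry relative depth, were 0.786 ± 0.285 in WT and 1.37 ± 0.233 in AKO female libraries and 0.838 ± 0.332 and 1.36 ± 0.423 in males (SD, n = 4 each). AKO libraries were on average the deeper ones, and counting error was largest for WT Rgs16. Bcl6 itself was listed for female inguinal fat, at 988 to 1442 normalized counts in WT and 2295 to 2800 in AKO, higher in the libraries labelled AKO. The counts span the whole gene and do not separate the deleted exons, so they do not check the labels. Of 9 adipocyte markers searched as a check of the labelled tissue, Adipoq was listed in females (45320 to 50391 normalized counts in WT, 61301 to 74578 in AKO) and Plin1 in males (14601 to 20810 in WT, 12422 to 14285 in AKO).

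In male inguinal fat Rgs16 was 10.1-fold higher in AKO than in WT, and Rgs7 was 1.49-fold lower. In these bulk samples, fewer cells of a type and less RNA per cell cannot be told apart. A normalized count here is a read count divided by the library's size factor. In males, Rgs16 had normalized counts of 37.6, 45.8, 29.3 and 52.0 in WT replicates 1 to 4 and of 290.0, 414, 453 and 505 in AKO replicates 1 to 4. The groups did not overlap, and the lowest AKO library was 5.58-fold above the highest WT library. Only called genes are held, among which groups without overlap are likely, and the share of such genes was not counted. Here and below, a lack of overlap is therefore a description only. The raw counts behind the WT values were 14, 42, 34 and 47, and a count of 14 has a counting error of 26.7%. The edgeR fit gave a log2 fold of 3.33 ± 0.22 (SE), from a mean of 41.2 ± 9.88 to 416 ± 91.6 normalized counts (SD, n = 4). Relative spread was alike in both groups, with coefficients of variation of 24.0% and 22.0%.

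Rgs7 in males had normalized counts of 362, 377, 311 and 362 in WT and of 246, 220, 249 and 233 in AKO, in the order of the replicates. These groups did not overlap either, but they lay close together, with the lowest WT library 1.25-fold above the highest AKO library. The log2 fold was -0.58 ± 0.08 (SE), from 353 ± 28.9 to 237 ± 13.3 normalized counts (SD, n = 4). Both genes are among the 1074 that the authors listed of 12554 tested in male inguinal fat, a background of 8.56%. Since that listing was part of how the genes were chosen, nothing is read from it. Among 570 genes listed as higher, Rgs16 had the 5th largest log2 fold in the authors' deposited table, and Rgs7 was 132nd of 504 listed as lower.

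In female inguinal fat Rgs16 was 7.28-fold higher in AKO, and Rgs7 was 2.47-fold lower. Rgs16 had normalized counts of 89.6, 102, 137 and 98.1 in WT and 761, 710.0, 847 and 809 in AKO. The groups were separated by a 5.18-fold gap between the highest WT and the lowest AKO library. The log2 fold was 2.86 ± 0.14 (SE), from 107 ± 21.0 to 781.8 ± 59.4 normalized counts (SD, n = 4). The AKO libraries varied little, with a coefficient of variation of 7.59% against 19.7% in WT.

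Rgs7 in females had normalized counts of 463, 564, 437 and 569 in WT and 208, 181, 254 and 182 in AKO. No AKO library reached a WT library, and the nearest pair differed 1.72-fold. The log2 fold was -1.31 ± 0.15 (SE), from 508 ± 67.9 to 207 ± 34.2 (SD, n = 4). The authors listed 790 of 13546 genes tested in female inguinal fat (5.83%). In the authors' deposited table Rgs16 had the lowest p of all of them and the 6th largest log2 fold of 434 higher genes, and Rgs7 the 14th largest of 356 lower genes.

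**Figure D1:**
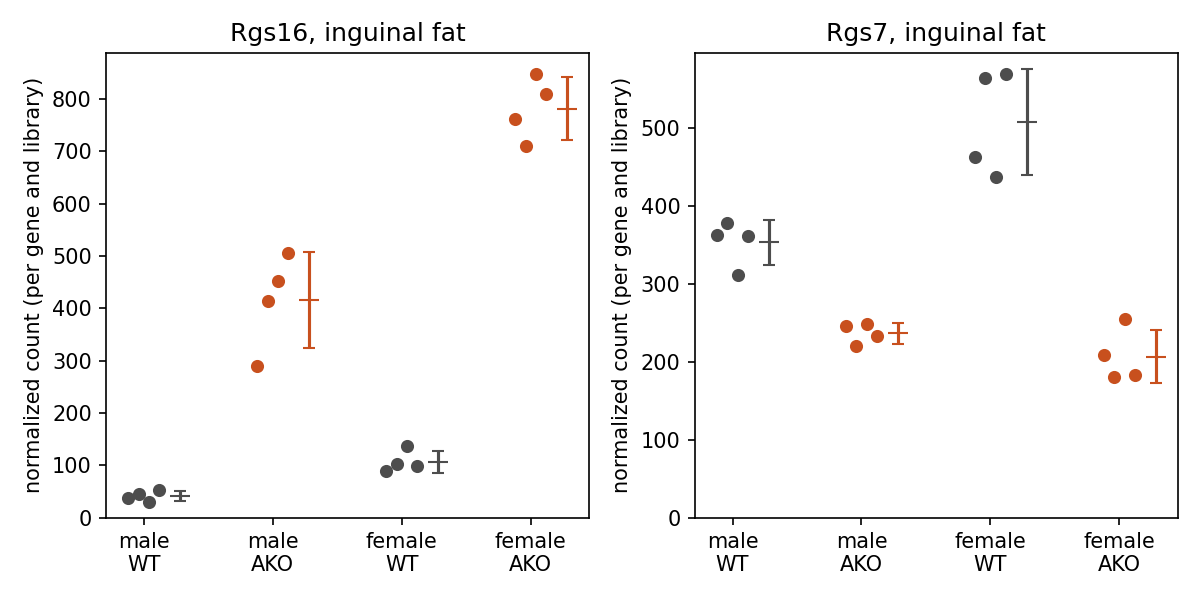
Normalized counts of Rgs16 (left) and Rgs7 (right) in each inguinal library, 4 per group, with the mean and SD beside the points; both vertical axes start at 0, and the male and female tables were scaled separately, so levels are to be read within a sex. AKO points of Rgs16 lie at 290.0 or more in males and 710.0 or more in females, above every WT point, and AKO points of Rgs7 lie below every WT point of the same sex.

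The ratio of raw counts of both genes in one library needs no scaling, and it turned over between the genotypes. Rgs16 made up 8.61% to 12.6% of the summed Rgs16 and Rgs7 counts in male WT libraries and 54.1% to 68.5% in male AKO libraries. In females the share was 14.7% to 23.9% in WT and 76.9% to 81.6% in AKO. Rgs7 counts exceeded Rgs16 counts in each of the 8 WT libraries, and the reverse held in each of the 8 AKO libraries. The mean log2 ratio of Rgs16 to Rgs7 counts moved from -3.13 to 0.78 in males and from -2.26 to 1.93 in females, a shift of 3.91 and 4.19. Counts also depend on transcript length, so levels were compared per kilobase. With all exons as length, male WT fat had 17.6 normalized counts per kilobase of Rgs16 and 58.7 of Rgs7, and male AKO fat 178 and 39.3. In females these levels per kilobase were 45.6 for Rgs16 and 84.4 for Rgs7 in WT, and 334 and 34.3 in AKO. With the longest coding transcript as length, Rgs7 levels came to 145 (WT) and 97.3 (AKO) per kilobase in males and 209 and 85.0 in females, and the order of both genes was the same in each genotype and sex.

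**Figure D2:**
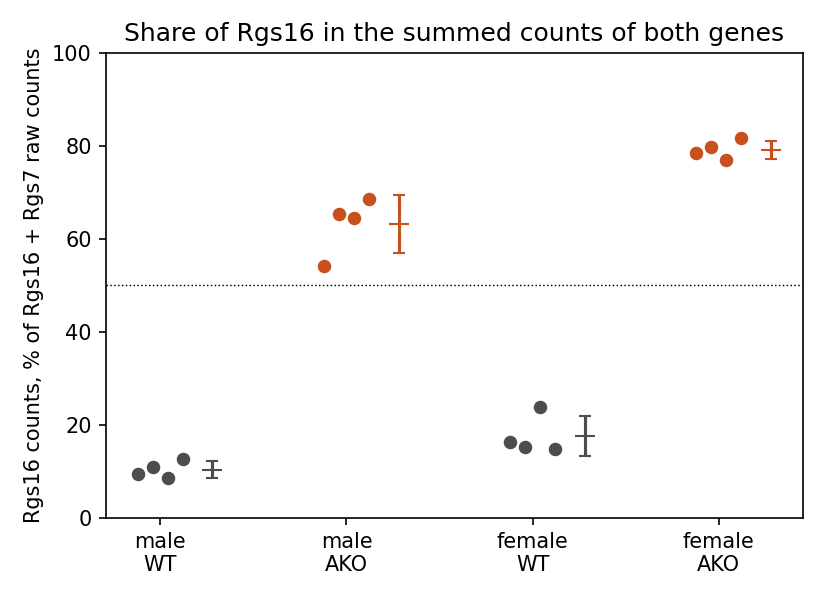
Rgs16 counts as a percentage of Rgs16 plus Rgs7 raw counts in each inguinal library, 4 per group, with mean and SD; the dotted line marks equal counts. WT libraries lie at 23.9% or less and AKO libraries at 54.1% or more, and within each genotype female libraries lie above male ones.

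The same ratio was compared between the sexes within each genotype, a comparison that the choice of genes did not use but that was made after the values were seen. The log2 ratio of Rgs16 to Rgs7 counts was -3.13 ± 0.27 in male and -2.26 ± 0.40 in female WT libraries (SD, n = 4 each), a 1.82-fold higher ratio in females. In AKO libraries it was 0.78 ± 0.38 in males and 1.93 ± 0.17 in females, a 2.21-fold higher ratio in females. All 4 female libraries lay above all 4 male libraries in both genotypes (two-sided exact permutation test, p = 0.0286 for each and adjusted p = 0.0286 over both comparisons, the smallest p that 4 against 4 allows). The animal numbers of the sexes lie in separate ranges in the labels, so sex cannot be told apart from the set of mice. From WT to AKO the log2 ratio moved by 3.91 in males and by 4.19 in females. Much of the gap between the sexes in AKO is thus already present in WT, and the p-values of the genotypes are not separate findings. The AKO ratio also takes in the sex difference of Rgs7, which was already known from these data.

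Whether the AKO difference itself depended on sex was tested with the interaction of sex and genotype over the 290 genes held for both sexes. Of these, 5 passed an adjusted p of 0.05 (1.72%). Genes were held only where the authors had called them for AKO against WT. The fitted spread, the adjusted p and that share therefore rest on genes picked for changing, not on all genes tested. For Rgs16 the log2 fold was 3.33 in males and 2.86 in females, a difference of 0.47 ± 0.26 SE with a 95% interval from -0.09 to 1.02 (edgeR quasi-likelihood test, adjusted p = 0.507). A larger Rgs16 response in males by up to 1.02 is therefore within the interval. For Rgs7 the difference was 0.73 ± 0.18 SE with an interval from 0.36 to 1.10 (edgeR adjusted p = 0.0369), a smaller reduction in males. That difference was already known from these data and is no independent evidence. This call was lost under several settings. With the replicate number as a block the edgeR adjusted p was 0.101, with the block in males only, where same-numbered libraries deviated together, it was 0.0633, and with TMM scaling it was 0.0567. It was also lost without female WT replicates 1, 2 or 4, female AKO replicates 1, 2 or 4, male WT replicate 3 or male AKO replicates 1 or 3, where edgeR adjusted p ran from 0.0513 to 0.0869. The size of the difference stayed between 0.67 and 0.85 when any 1 library was left out.

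**Figure D3:**
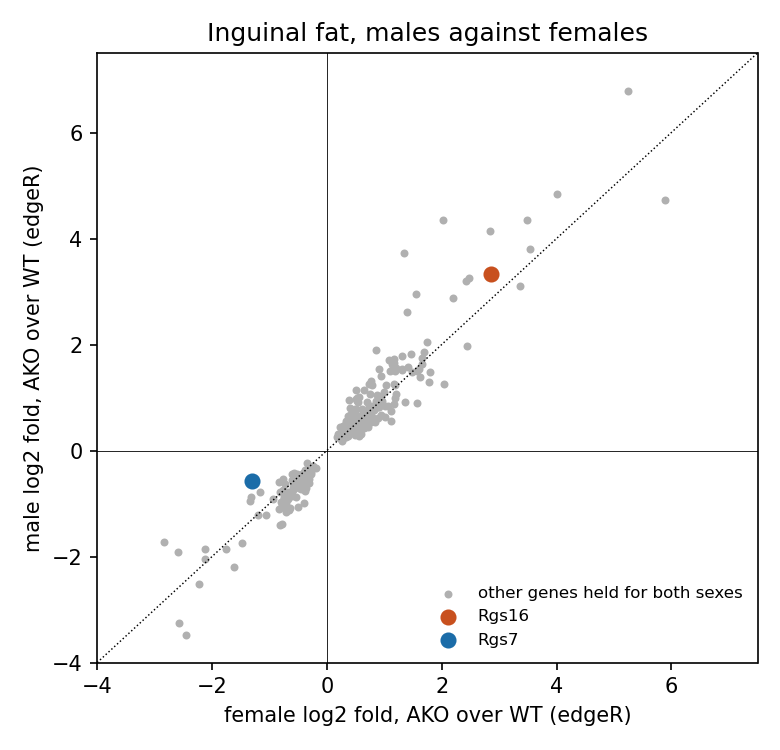
Log2 fold of AKO over WT in male (vertical) against female inguinal fat (horizontal) for the 290 genes held for both sexes, from the edgeR fit of each table; the dotted line marks equal folds. Both genes lie above the line, Rgs16 at 2.86 and 3.33 (female, male) and Rgs7 at -1.31 and -0.58.

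In perigonadal fat of males Rgs16 was likewise higher in AKO. The authors' deposited table gives it a mean of 406 normalized counts and a log2 fold of 3.16 ± 0.20 (SE), the 5th largest of 759 higher genes. In the authors' deposited tables the log2 fold of Rgs16 was 2.88 ± 0.21 in male and 2.68 ± 0.13 in female inguinal fat, beside 3.16 in the perigonadal depot. Those male depots share their mice, and the difference between them was not tested. The authors' folds are smaller than those of the edgeR fit (2.88 against 3.33 in males), so the sources are kept apart. A DESeq2 fit of the same counts with the same size factors also gave 3.33 in males. Why the deposited folds are smaller was not tested. Rgs7 was not among the 1488 genes listed for perigonadal fat of 13361 tested (11.1%), and its value there was not analysed here.

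Other genes of the RGS family were searched for by symbol, 21 in all. Besides the pair, the authors' deposited tables list Rgs2, which encodes a regulator that acts mainly on Gq, as lower in male inguinal fat (log2 fold -0.96 ± 0.19 SE) and in perigonadal fat (-0.99 ± 0.19). Rgs2 had normalized counts of 999, 1420, 1145 and 756 in WT and 628, 494, 415 and 525 in AKO male inguinal libraries. All 4 AKO libraries lay below all 4 WT libraries, the nearest pair 1.20-fold apart. Rgs2 was not listed for females. Rgs1 (1.02 ± 0.27), Rgs18 (0.45 ± 0.15) and Rgs14 (0.40 ± 0.14), which are known from blood and immune cells, were listed as higher in perigonadal fat only, on the log2 scale of the authors' deposited table. In that depot 4 of 10 macrophage markers (Emr1, Cd68, Csf1r and Mrc1) were listed, all as higher (median log2 fold 0.50), and 1 of 9 lymphoid markers (Ptprc). Their part in the values of Rgs1, Rgs18 and Rgs14 was not tested. Without Rgs16 and Rgs7, whose listing was known when they were chosen, 19 family genes remained. Of these, 0 were listed as higher and 1 as lower in male inguinal fat, where 4.54% and 4.01% of all genes tested were listed so. In female inguinal fat 0 were listed, against 3.2% (higher) and 2.63% (lower) of all genes tested. In perigonadal fat 3 were listed as higher and 1 as lower, against 5.68% and 5.46% of all genes tested, with a median log2 fold of 0.42 beside 0.21 over all genes of the authors' deposited table.

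Of 5 partners searched for the R7 group of RGS proteins, which includes Rgs7, only Gpr179 was listed, in both inguinal tables. The others were Gnb5, Rgs7bp, Rgs9bp and Gpr158. Gpr179 encodes an orphan receptor that binds the Rgs7 and Gnb5 complex in retinal bipolar cells. It had raw counts of 1, 2, 1 and 0 in male WT and 197, 257, 138 and 170 in male AKO libraries. In females its raw counts were 1, 4, 6 and 3 in WT and 127, 260, 145 and 457 in AKO. No WT library had more than 6 counts and no AKO library fewer than 127, and the AKO libraries are those in which Rgs7 was lower. Per kilobase of exon, Gpr179 reached 15.2 normalized counts in male and 18.1 in female AKO fat, below Rgs7 at 39.3 and 34.3.

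**Figure D4:**
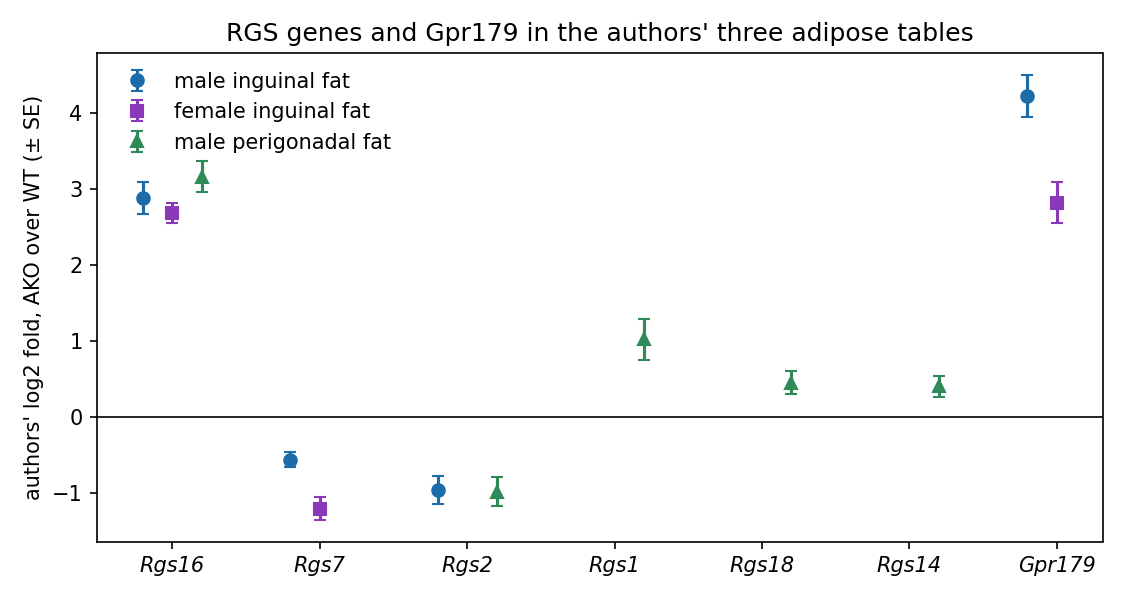
The authors' log2 fold of AKO over WT with its SE for each listed gene of the RGS family and for Gpr179, by depot and sex; a missing symbol means that the gene was not listed for that comparison. Rgs16 lies between 2.68 and 3.16 in the 3 comparisons, Rgs7 at -0.56 and -1.21 and Rgs2 at -0.96 and -0.99. Gpr179 lies at 4.22 in male and 2.82 in female inguinal fat, where the edgeR fit gave 6.78 and 5.24.

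The receptors, G proteins and effectors that RGS proteins act beside were searched from lists chosen with earlier results known. Of all genes tested, 8.56% were listed in male inguinal, 5.83% in female inguinal and 11.1% in perigonadal fat. Of the 35 G-protein genes searched, 2 were listed in each of these comparisons. Among 35 genes for G-protein subunits and their regulators, Gnai1, an inhibitory alpha subunit and substrate class of both RGS proteins, was higher in AKO inguinal fat of both sexes. Gnai1 had 3385 ± 668 normalized counts in WT and 4958 ± 382 in AKO males, and 4981 ± 300.3 and 7050 ± 586 in females (SD, n = 4 each), with no overlap of the groups in either sex. The authors' deposited tables also list Gng2 as higher in females and perigonadal fat (0.40 ± 0.13 and 0.58 ± 0.15 on the log2 scale), Gnb2 as lower in male inguinal fat (-0.20 ± 0.04) and Gnb1 as lower in perigonadal fat (-0.22 ± 0.06). Of 45 Gi-coupled receptor genes, 2 were listed in each inguinal table, as lower, Adora1 and Cmklr1 in males and Adora1 and Cnr1 in females. Of all genes tested, 4.01% in males and 2.63% in females were listed as lower, so these counts show nothing particular to the class. Adora1, the adenosine receptor that restrains lipolysis, had 2108 ± 362 against 1254 ± 150 normalized counts in males and 2327 ± 387 against 1362 ± 201 in females (WT against AKO, SD, n = 4 each). In perigonadal fat the authors' deposited table lists Gabbr1 and C3ar1 as higher (0.34 ± 0.11 and 0.59 ± 0.13, log2) and Ffar2 and Cmklr1 as lower (-0.40 ± 0.13 and -0.72 ± 0.13).

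Counts here are in the order male inguinal, female inguinal and perigonadal fat, where 8.56%, 5.83% and 11.1% of all genes tested were listed. Gs-coupled receptor genes, 30 in number, had 4, 5 and 5 listed, which went both ways. Listed were 1, 2 and 5 of 33 Gq-coupled receptor genes and 4, 4 and 3 of 45 cyclic AMP genes. For 26 effectors the counts were 1, 2 and 4, and for 17 kinase, arrestin and RGS-homology genes 1, 0 and 3. No list was tested against these shares. The thyrotropin receptor gene Tshr was listed as higher in all 3 fat comparisons, the corticotropin receptor gene Mc2r in both inguinal tables and the glucagon receptor gene Gcgr in females and perigonadal fat. The secretin receptor gene Sctr was listed as lower in all 3, Adcyap1r1 as lower in perigonadal fat, Adrb1 as lower in male inguinal fat, and Adrb3, named outside the rule after its values were seen, as lower in females and perigonadal fat. In the authors' deposited tables the log2 fold of Gcgr was 2.33 ± 0.25 in females and 2.44 ± 0.18 in perigonadal fat, and that of Sctr was -1.69 ± 0.20 in male inguinal and -1.59 ± 0.24 in perigonadal fat. Of 33 Gq-coupled receptor genes, Lpar4 was higher in male inguinal and perigonadal fat, P2ry6 in females and perigonadal fat, Ptgfr in females, and Adra1a and Avpr1a in perigonadal fat, where Adra1d, likewise named after its values were seen, was lower. In the cyclic AMP list of 45 genes, the adenylyl cyclase gene Adcy3 and the kinase anchor gene Akap12 were higher in all 3 fat comparisons, with Adcy3 at 0.59 ± 0.14, 0.57 ± 0.09 and 0.77 ± 0.11 on the log2 scale of the authors' deposited tables (male inguinal, female inguinal, perigonadal). Adcy5 was lower and Pde7a higher in males, Pde1a and Prkar2b higher in females, and Pde4d lower in perigonadal fat. Among 26 effectors of Gq and of beta-gamma subunits, Trpc6 was lower in both inguinal tables and Plcb3 in females, and Prkcb, Prkcd, Dgka and Pik3cg were higher in perigonadal fat. Of 17 distinct receptor kinase, arrestin and RGS-homology genes, Adrbk2 was lower in male inguinal and perigonadal fat, and Grk4 and Arhgef1 were higher in perigonadal fat. Members of these lists that are not named were not in the tables, so their values were not analysed here and nothing is said of their change.

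The genes whose values followed the pair most closely were found by Pearson correlation over the 16 inguinal libraries on log2 values, after the mean of each table was taken away, among 256 other genes held for both sexes. Rgs16 was most like Mfsd7c, Gpr179, Nt5e, Eif4a2 and Nipsnap1 (r from 0.966 to 0.973) and strongly opposite to Klhl2 and Kctd15 (r of -0.964 and -0.957). These libraries share genotype, and after the mean of each group was taken away the r of the same genes with Rgs16 ran from -0.261 to 0.183. Rgs7 was most like Sctr (r = 0.940), P2rx5, Cspg4, Tapt1 and Fmo1 and most opposite to Mc2r (r = -0.950), Slc7a10 and Akap12 (r = -0.916). Within groups, Rgs7 had an r of 0.507 with Sctr, -0.625 with Mc2r and -0.651 with Akap12 over the 16 libraries, the largest of the 8 genes named for Rgs7. Rgs16 and Rgs7 had an r of -0.855 with each other across groups and of 0.102 within groups. All of these are descriptions over libraries that differ in depth and in the levels of cell-type markers, and the part of either in these r was not tested.

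Markers of other cell types in the inguinal tables are given beside the pair. Of all genes tested, 4.54% were listed as higher and 4.01% as lower in male inguinal fat. In female inguinal fat these shares were 3.2% and 2.63%, and in perigonadal fat 5.68% and 5.46%. From 1 listed marker in a list of 6 to 10, nothing is read about a cell type. Of 7 mural cell markers only Cspg4 was listed, lower in both sexes, from 1476 to 2199 normalized counts in WT to 963 to 1099 in AKO males and from 2462 to 2937 to 1198 to 1685 in females. In females, 4 of 9 epithelial markers (Krt8, Krt7, Cldn7 and Csn3) were listed as lower, with a summed level of 14087 to 18245 normalized counts in WT and 6066 to 9434 in AKO. Also in females, 4 of 10 macrophage markers (Csf1r, Lyz2, Cd163 and Mmp12) were listed as higher, summing to 13869 to 17299 in WT and 17373 to 23965 in AKO. Lyz2 had the highest mean of these, 10972 normalized counts beside 4979 for Csf1r. Both sums hold only markers already called in this contrast, so a gap between genotypes follows from that choice and is no level of a cell type. In males 1 macrophage marker was listed as lower (Cd14, 349 to 441 in WT and 255 to 338 in AKO), 1 of 6 endothelial markers as higher (Pecam1, 3146 to 3597 and 3830 to 3976), and 1 of 6 muscle markers as lower (Acta1, 64.4 to 102 and 22.2 to 55.5). Lrrn4, 1 of 10 progenitor and mesothelial markers, was listed as higher in both sexes, from 24.2 to 40.5 in WT to 100.4 to 139 in AKO males and from 59.7 to 94.2 to 122 to 226 in females. In perigonadal fat, besides the macrophage and lymphoid markers given above, Cidec and Lipe of the adipocyte list, Krt7 and Krt14 of the epithelial list, and Dpp4, Cd55, Krt19 and Lrrn4 of the progenitor and mesothelial list were listed as lower. The part of these cells in the values of Rgs16 and Rgs7 was not tested, and the other markers of the lists named here were not in the tables.

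Around Rgs16, 17 annotated genes (8 protein-coding) lie within 250 kb. Exons of Gm28513, annotated on the opposite strand, overlap those of Rgs16, and since the strand setting of the counting is not given in the sources used here, reads of that gene cannot be told apart from those of Rgs16. Within 250 kb of Rgs7 lie 9 genes, 7 of them protein-coding, and no other gene's exons overlap its own. Kmo and Chml near Rgs7 were listed for perigonadal fat only, with log2 folds of 0.46 ± 0.16 and 0.28 ± 0.10 in the authors' deposited table, where Rgs7 was not listed. Chromosome 1 holds 11 genes named Rgs and a number, of which Rgs8, the closest to Rgs16, and Rgs4 and Rgs5 were not listed in any table.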

How the data were processed

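Per the labels' protocols, RNA was isolated with Trizol and RNeasy columns and poly(A) libraries were made with a TruSeq Stranded mRNA kit. STAR, DESeq2 and mm10 appear in the submitters' processing notes, without versions; the sources used here do not give the read counter, the annotation or the strand setting. The series holds 32 samples in 8 groups of 4. The deposited count tables hold raw whole-number counts of listed genes only. Per the file headers, the authors' comparison tables hold each gene's average normalized count over all libraries compared (a signal), a log2 fold change with SE, and p-values with adjusted p-values; adjusted p is under 0.05 for every listed gene. In both inguinal tables the deposited log2 fold had the sign of AKO over WT for every gene matched by name (1074 and 789, with 1 female name unmatched); for perigonadal fat that direction is assumed from the like header.

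The authors' size factors were solved from the counts and deposited means (largest misfit 4.79e-08%). Counts were fitted per table with edgeR 4.0.16 (glmQLFit in legacy mode, glmQLFTest, no covariate, no filter) in R 4.3.3, and SEs are the log2 fold over the root of F. The interaction was tested over 16 libraries and adjusted by Benjamini-Hochberg. The tables were scaled separately, which the sex term absorbs. The numbers of genes tested were recovered from p and adjusted p. The code was tested on simulated data. Same-numbered WT and AKO male libraries deviated together (r from 0.151 to 0.325 over 1009 genes, each highest with its own number), and female ones did not (r from -0.255 to 0.118); the pairing is read from the data alone. Animal numbers differ within groups. Counting errors cover counting only.

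The genes and lists were chosen with earlier results of these data known. Named are Rgs16 and Rgs7, listed RGS genes and R7 group partners, and up to 4 genes per other list and table by lowest adjusted p. Also named are the 5 genes most like and 3 most opposite to each of the pair, Bcl6, Adipoq and listed genes within 250 kb. Likeness used a mean normalized count of at least 50 and log2 of count plus 1, with provisional names such as Gm28513 not considered. Some genes that this rule names, and a list of neuronal and Schwann cell markers, are not reported here. Alternatives were TMM, table totals, DESeq2 1.42.0, a mean count of at least 50, a replicate block and leaving out each replicate.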

Additional observations from a re-analysis of the deposited data

Results flagged for a closer look

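In inguinal fat the AKO over WT fold of Rgs7, which was lower in AKO in both sexes, differed between the sexes in the main fit. The male minus female difference in log2 fold was 0.73 ± 0.18 SE (edgeR quasi-likelihood interaction test, adjusted p = 0.0369). That call held in 10 of 22 alternatives, and the difference was already known from these data. Sex cannot be told apart from the set of mice, nor the deletion from the Cre transgene. The adjusted p ran from 0.00448 (DESeq2) to 0.101 (edgeR with the replicate block) over 22 alternatives. No library of Rgs16 or Rgs7 stood apart from its group of 4 by the gap over the range, among 8 groups looked at.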

How the results depend on the processing

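Rgs16 was higher and Rgs7 lower in AKO inguinal fat under each alternative run in each sex. With table totals as library size, the female log2 fold moved to 2.65 for Rgs16 and to -1.52 for Rgs7, by more than the spread between replicates; that setting forces equal totals over genes picked for changing. The sex difference of Rgs7 did not pass with TMM scaling (0.69), with a replicate block (0.73) or with a block in males only (0.73, chosen after the pairing was seen), nor in 9 of 16 fits without 1 library, whose values ran from 0.67 to 0.85; the cause was not tested. That of Rgs16 passed in none of 22 alternatives. The 5 interaction calls became 3 with TMM, 9 with table totals or DESeq2, 7 with the replicate block, and 2 to 7 without 1 library. Without 1 library the sex difference in the Rgs16 to Rgs7 log2 ratio ran from -0.98 to -0.67 in WT and from -1.26 to -0.97 in AKO, where 3 against 4 cannot reach p below 0.0571 (exact permutation). Beyond the interaction, the block moved no fold of Rgs16 or Rgs7 by more than the spread between replicates. Depth limits WT Rgs16 in males, at 14 to 47 raw counts per library.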
